A study of Mus musculus with 13 samples.

Results

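DNA repair genes of the mouse retina, 57 in number, were followed across light and loss of PGC-1α. The genes were chosen by name from a list of repair factors, and all 57 were found among the 19937 genes measured. By repair route they were 8 genes of crosslink repair, 13 of homologous recombination, 4 checkpoint kinases, 10 of nucleotide excision repair, 8 of base excision repair, 3 of mismatch repair, 5 of end joining and 6 that fill gaps. Each array, an Affymetrix Mouse Gene 1.0 ST chip, held the pooled RNA of both retinae of 1 mouse. The KO dark group held 3 arrays of PGC-1α knockout mice kept in the dark, and the WT dark group held 4 arrays of wildtype mice kept in the dark. The KO light and WT light groups held 3 arrays each of mice of both genotypes that had been exposed to bright light for 2 h. All mice were dark-adapted overnight, and the methods name dilated pupils before the light and a night of darkness after it. The knockout is global and lies on a C57 BL/6 background, whereas the wildtype C57 BL/6 NRj mice were bought from a breeder, so that genotype and colony cannot be told apart. By the labels all dark mice were female except WT dark 4 and all light mice were male, so that light and sex cannot be told apart either. The methods give an age range for both genotypes and no age for a single array. In whole retina fewer cells of a type and less RNA per cell cannot be told apart.

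DNA repair genes encode the enzymes that find and mend damaged bases, crosslinked strands, mispaired bases and broken ends. Base excision repair removes single oxidized or lost bases, nucleotide excision repair cuts out bulky lesions, and end joining rejoins double-strand breaks without a template. Homologous recombination, crosslink repair and mismatch repair are most active in cells that copy their DNA. Photoreceptors no longer divide, and bright light is known to bring them oxidized bases and strand breaks. PGC-1α, the product of Ppargc1a, coactivates transcription and works through nuclear receptors of the ERR family and through NRF-1 on genes of mitochondria.

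Array identity limited what could be read from the light-exposed KO mice. Over all genes the array labelled WT dark 4 had a mean correlation of 0.9975 with KO light 1 and 2 and of 0.9892 with WT dark 1 to 3, and KO light 3 one of 0.9921 with KO light 1 and 2 and of 0.9968 with WT dark 1 to 3. Over the 57 repair genes KO light 3 lay at a root mean square distance of 0.08 from the WT dark mean and of 0.14 from the mean of KO light 1 and 2, on the log2 scale, and it was nearer to WT dark at 40 of 57 genes. WT dark 4 lay at 0.09 from KO light 1 and 2 and at 0.17 from WT dark, and it was nearer to KO light at 40 of 57 genes. Both readings are therefore given. Values as labelled come from the 12 arrays KO dark 1 to 3, WT dark 1 to 3, KO light 1 to 3 and WT light 1 to 3, and values with the exchanged arrays have WT dark 4 as the third KO light array with KO light 3 left out. Ppargc1a had log2 intensities of 10.19 to 10.40 in KO dark and 10.01 to 10.03 in WT dark 1 to 3, and its probe sets were not tied to the deleted exons, so that they did not check the genotype labels.

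Retinal cell markers differed between the light arrays. The summed intensity of 8 rod genes was 44050 to 45680 in KO dark, 44750 to 46800 in WT dark, 44500 to 46490 in WT light and, in KO light, 38920 to 43800 (37480 to 41750 with the exchanged arrays). All 7 reactive glia genes had a higher mean in KO light than in WT light, with sums of 1476 to 5533 against 1283 to 2785, and with the exchanged arrays the KO light sums were 4920 to 6088. The 6 measured genes of dividing cells summed to between 723.6 and 883.7 in KO light and between 887.8 and 927.8 in WT light, and 3 of them had a lower mean in KO light. As labelled no marker gene was called between the light groups by the limits given below, where 0.176% of all genes were called. In KO light against WT light with the exchanged arrays 8.23% of all genes were called. There 6 of the 8 rod genes, 4 of the 6 cone genes and 1 of the 6 genes of dividing cells were called lower, and all 7 reactive glia genes were called higher. Called or not, all 8 rod genes, 5 of the 6 cone genes and 4 of the 6 genes of dividing cells had a lower mean there. No marker of these lists was at 0. The part of cell composition in the differences of the repair genes was not tested.

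**Figure D1:**
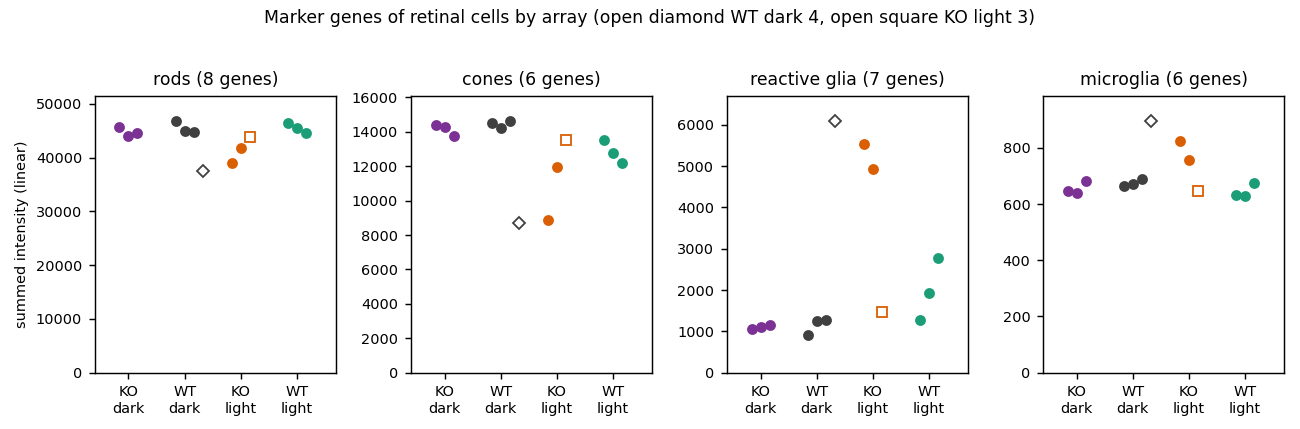
Summed linear intensity of the marker genes of rods, cones, reactive glia and microglia in each of the 13 arrays by group, with WT dark 4 as an open diamond and KO light 3 as an open square. Reactive glia sums of KO light 1, KO light 2 and WT dark 4 lay at 4920 to 6088, above the 1476 of KO light 3 and every other array.

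As labelled, 1 of the 57 repair genes passed the test in 1 of the 5 comparisons. A call needed an adjusted p below 0.05 and a ratio from 1.2 upwards or from 0.87 downwards, and for the interaction, the light response of KO minus that of WT mice, at the adjusted p alone. KO dark against WT dark gave 0 called repair genes, where 0.0752% of all genes were called, and the median difference over the 57 genes was -0.02 against 0.00 over all genes. KO light against WT light gave 0 as well, where 0.176% of all genes were called. In KO light 42 of 57 repair genes had a lower mean, as had 11270 of all 19937 genes. The medians were -0.05 over the repair genes and -0.01 over all genes. The KO light arrays gave no call against KO dark, where 0.1% of all genes were called and the median was 0.01 against 0.00. WT light against WT dark gave the only call, Fancc, which fell, and the called share was 1.75% of the repair genes and 0.431% of all genes. Here 42 of 57 repair genes had a higher mean after light, as had 56.1% of all genes, with a median of 0.05 against 0.02 over all genes. The interaction gave 0 called repair genes, where 0.0602% of all genes were called, and a median of -0.03 against -0.02.

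At an unadjusted p under 0.05 in limma the repair genes gave shares on both sides of those of all genes. The counts were 2 of 57 (3.51%) for KO dark against WT dark, where all genes gave 7.1%, 10 of 57 (17.5%) for KO light against WT light, where all genes gave 12.9%, and 3 of 57 (5.26%) for KO light against KO dark, where all genes gave 13.9%. For WT light against WT dark they were 13 of 57 (22.8%) where all genes gave 17.1%, and for the interaction 6 of 57 (10.5%) where all genes gave 6.86%. All 10 genes past that limit between KO light and WT light had the lower mean in KO light, as had 1430 of the 2570 genes (55.6%) past it in all. Between WT light and WT dark 11 of the 13 had the higher mean after light, and 2125 of 3418 (62.2%) in all. Without moderation of the variances 0 repair genes were called in any of the 5 comparisons. That count stands without the share of all genes and is not read as a result about the repair genes. The 95% interval of a repair gene's difference reached 0.13 on the log2 scale to either side at the median, a ratio of 1.09.

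**Figure D2:**
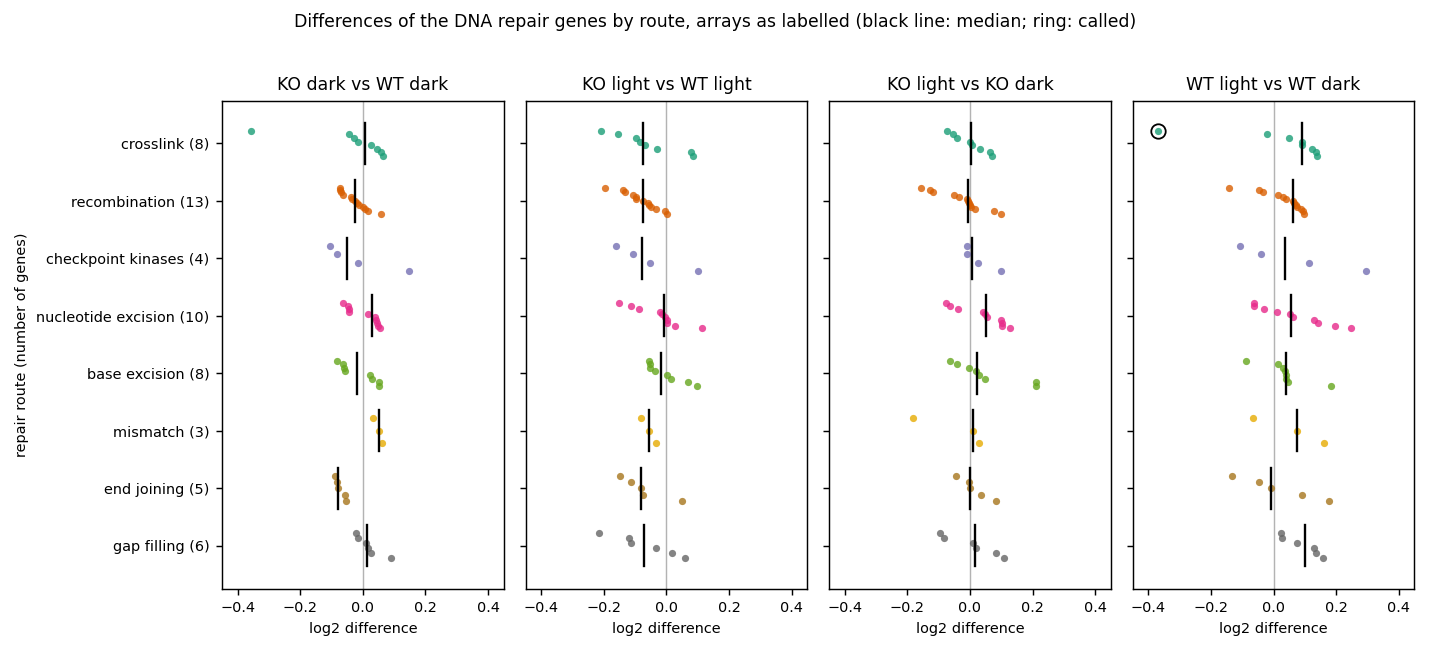
Log2 differences of the 57 DNA repair genes in 4 comparisons with the arrays as labelled, by repair route, 1 point per gene, with the median of a route as a black line and a ring around called genes. Most points lie within 0.2 of 0, and Fancc is the gene at -0.36 in the dark comparison and at -0.37, ringed, in the WT light comparison.

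With the exchanged arrays more of all genes were called, and the called share of the repair genes lay below that of all genes in 4 of the 5 comparisons. These shares rest on 1 to 4 called repair genes. Between KO light and WT light 2 of 57 (3.51%) fell, Fancg and Blm, where 8.23% of all genes were called. Against KO dark 4 of 57 (7.02%) were called in KO light, Parp1 and Apex1 higher and Msh3 and Blm lower, where 13.3% of all genes were called. Between WT light and WT dark Fancc fell and Atm rose, 2 of 57 (3.51%) where all genes gave 4.41%, and the interaction gave Fancc, 1 of 57 (1.75%) where all genes gave 2.78%. Between KO dark and WT dark Fancc fell, again 1 of 57 (1.75%), where 0.878% of all genes were called. In the comparisons without KO light the differences stayed as they were and the SE, which all 4 groups share, changed. The median SD of the repair genes was 0.08 in KO light as labelled and 0.05 with the exchanged arrays, against 0.05 in KO dark, 0.06 in WT dark and 0.06 in WT light. Unadjusted p under 0.05 in limma was reached by 2 of 57 repair genes (3.51%) in KO dark against WT dark (all genes 10.3%). It was reached by 16 (28.1%) in KO light against WT light (26.5%) and 15 (26.3%) in KO light against KO dark (34.7%). The counts were 14 (24.6%) in WT light against WT dark (23.8%) and 13 (22.8%) in the interaction (16.2%). At that limit the share of the repair genes was close to that of all genes in KO light against WT light and in WT light against WT dark. It was higher in the interaction and lower in KO dark against WT dark and in KO light against KO dark.

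With neither of these arrays, that is with KO light 1 and 2 alone, 11 arrays stayed in the fit. Fancc fell between KO dark and WT dark (1 of 57, all genes 0.853%), Blm fell between KO light and WT light (1 of 57, all genes 5.24%), and Parp1 rose and Msh3 fell between KO light and KO dark (2 of 57, all genes 9.94%). Fancc fell and Atm rose between WT light and WT dark (2 of 57, all genes 4.3%), and Fancc was called in the interaction (1 of 57, all genes 1.32%). Fancg and Apex1, called with the exchanged arrays, missed the threshold here at adjusted p of 0.0612 and 0.0526, as did Blm between KO light and KO dark at 0.0579.

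The exchange turned the direction of some small differences. Between KO light and WT light 7 of 57 repair genes lay on the other side of 0, namely Apex1, Ercc3, Fanca, Mutyh, Rad50, Rad52 and Xpa, and between KO light and KO dark 11 did so, among them Rad50, Atm and Xrcc1. In the interaction 14 did so. None of these was called in that comparison in either reading.

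**Figure D3:**
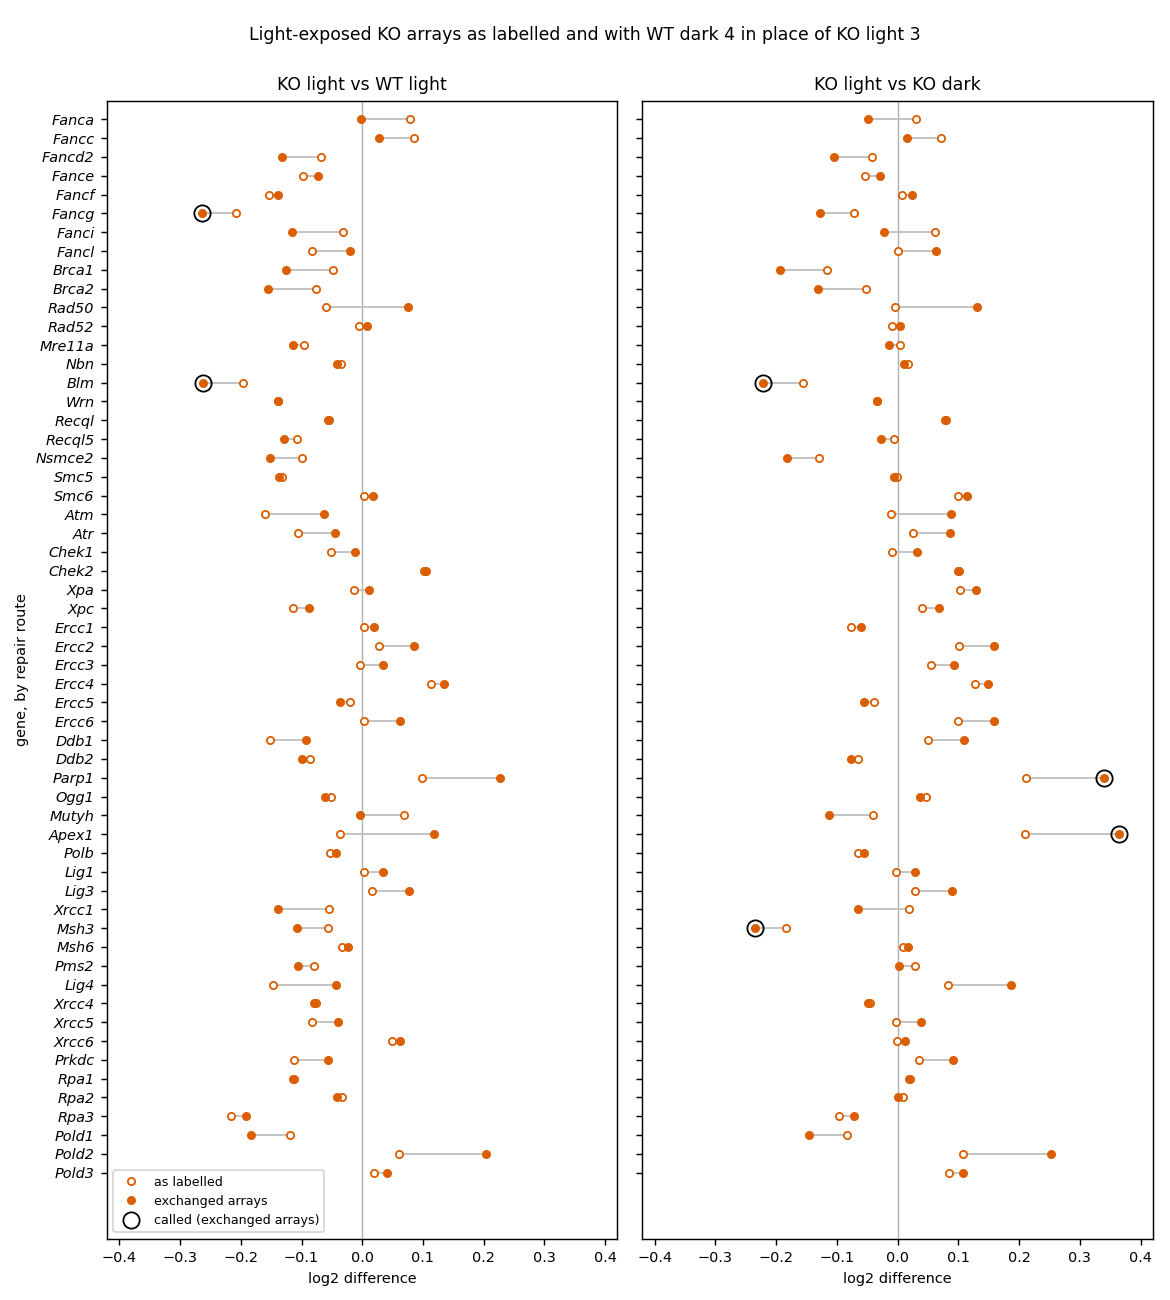
Log2 differences of each of the 57 repair genes between KO light and WT light (left) and between KO light and KO dark (right), as labelled (open points) and with the exchanged arrays (filled points, ringed where called). Parp1 moves from 0.21 to 0.34 and Apex1 from 0.21 to 0.36 against KO dark, and Fancg from -0.21 to -0.26 against WT light.

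Promoter windows were searched for letters bound by factors known for repair or PGC-1α genes. The windows run from 250 bases before to 50 after a gene's start in RefSeq (build GRCm38.p6), and 47 of the 57 genes have at least 1, 53 windows in all. Sought on both strands, the E2F letters TTTCCCGC stood in 13.2% of the windows of repair genes and in 1.07% of all 32851 windows, and the other E2F form TTTGGCGC in 1.89% and 0.514%. The NRF-1 core GCGCATGC stood in 17% and 2.71%, the ERR site AAGGTCA in 7.55% and 4.72%, and the E-box CACGTG in 13.2% and 7.15%. Windows of repair genes had a median GC content of 60.3% against 52.7% in all windows. The E-box was added after the windows had been seen. In the windows printed with their genes the capitals mark these letters, and no match says only that the letters are not in that window.

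Crosslink repair rests on the Fanconi anemia genes. Fanca, Fancc, Fance, Fancf, Fancg and Fancl belong to the core complex, in which Fancl is the ubiquitin ligase, and Fancd2 and Fanci form the clamp that it marks. Fancc was the repair gene with the largest difference as labelled in either comparison with WT dark. Fancc had log2 intensities of 7.43, 7.46 and 7.48 in WT dark 1 to 3, 7.14, 7.11 and 7.05 in KO dark, 7.11, 7.04 and 7.11 in WT light and 7.10, 7.08 and 7.32 in KO light 1 to 3, with 7.15 in WT dark 4. The 3 WT dark arrays in the fit were the highest of all 13, and neither KO dark nor WT light overlapped with them. Between WT light and WT dark Fancc fell, with a log2 difference of -0.37 (SE 0.06, 95% interval -0.50 to -0.23, adjusted p = 0.0369), a ratio of 0.774. When each of the 12 arrays was left out in turn the call held in 3 fits, those without KO light 1, 2 or 3, with adjusted p of 0.000907 to 0.126 over all 12, and with the exchanged arrays the adjusted p was 0.000497. With all 13 arrays and sex as a covariate, a term that rests on WT dark 4 alone, it was -0.069 (adjusted p = 0.765). In KO dark the difference from WT dark was -0.36 (SE 0.06, 95% interval -0.49 to -0.22, adjusted p = 0.0768), which missed the threshold, and with the exchanged arrays it passed (adjusted p = 0.00114). The interaction was 0.44 (SE 0.09, 95% interval 0.25 to 0.63, adjusted p = 0.195) as labelled and 0.38 (SE 0.06, 95% interval 0.25 to 0.52, adjusted p = 0.00681) with the exchanged arrays. The mean of Fancc was 7.45 in WT dark, against 7.10 in KO dark, 7.17 in KO light and 7.09 in WT light. Aopep, which lies next to Fancc on chromosome 13, differed by -0.26 (adjusted p = 0.591) in KO dark and by -0.29 (adjusted p = 0.197) in WT light from WT dark, and Ptch1 on the other side by 0.16 (adjusted p = 0.494) and -0.02 (adjusted p = 0.894).

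The promoter window of Fancc (chr13:63431696-63431995, minus strand) is shown since this gene gave the only call as labelled. It holds none of the letters sought, so it has no capitals.
Fancc: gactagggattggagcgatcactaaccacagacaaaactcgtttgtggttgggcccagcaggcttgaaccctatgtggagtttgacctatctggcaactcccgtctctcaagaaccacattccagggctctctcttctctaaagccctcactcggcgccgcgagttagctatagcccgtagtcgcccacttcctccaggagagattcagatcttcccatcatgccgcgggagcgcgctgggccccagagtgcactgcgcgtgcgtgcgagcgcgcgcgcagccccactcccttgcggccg

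Fancg, a core complex subunit, stood lower in KO light than in WT light. Fancg had log2 intensities of 8.57, 8.59 and 8.57 in WT dark 1 to 3, 8.61, 8.49 and 8.60 in KO dark, 8.75, 8.66 and 8.69 in WT light and 8.39, 8.57 and 8.51 in KO light 1 to 3, with 8.34 in WT dark 4. All WT light arrays lay above all arrays of the other groups, and KO light 1 and WT dark 4 were the lowest. KO light differed from WT light by -0.21 (SE 0.06, 95% interval -0.33 to -0.09, adjusted p = 0.157) as labelled and fell, at -0.26 (SE 0.06, 95% interval -0.39 to -0.14, adjusted p = 0.0114) with the exchanged arrays, a ratio of 0.833, and that call was lost without WT dark 4 (adjusted p = 0.0612). Fancf, another core subunit, differed by -0.15 (SE 0.06, 95% interval -0.28 to -0.02, adjusted p = 0.314) between KO light and WT light as labelled and by -0.14 (SE 0.06, 95% interval -0.26 to -0.01, adjusted p = 0.145) with the exchanged arrays. Fancf had log2 intensities of 8.82, 8.85 and 8.91 in WT dark 1 to 3, 8.72, 8.89 and 8.89 in KO dark, 9.003, 8.92 and 9.06 in WT light and 8.79, 8.90 and 8.83 in KO light 1 to 3, with 8.88 in WT dark 4. The 3 WT light arrays of Fancf lay above the KO light arrays. The remaining crosslink genes had adjusted p of 0.35 or more in the 4 pairwise comparisons as labelled, and their differences lay between -0.10 (Fance, KO light against WT light) and 0.14 (Fancl, WT light against WT dark). Fanca differed by 0.08 (SE 0.08, adjusted p = 0.735) between KO light and WT light, Fancl by -0.08 (SE 0.07, adjusted p = 0.679), and the clamp genes Fancd2 and Fanci by -0.07 (SE 0.05, adjusted p = 0.63) and -0.03 (SE 0.06, adjusted p = 0.887) as labelled. Fanca, with the exchanged arrays, was at -0.0015 (adjusted p = 0.993), Fancl at -0.02 (SE 0.06, adjusted p = 0.88), Fancd2 at -0.13 (SE 0.05, adjusted p = 0.107) and Fanci at -0.12 (SE 0.04, adjusted p = 0.104). Fancd2 and Fanci had mean log2 intensities under 6, where probe sets are dim. Among 8 crosslink genes 6 had a lower mean in KO light than in WT light as labelled and 7 with the exchanged arrays, and the route's median was -0.08 as labelled and -0.09 with the exchanged arrays. Of all 19937 genes 11270 were lower as labelled and 11751 with the exchanged arrays, with medians of -0.01 and -0.02.

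Homologous recombination copies the lost stretch from an intact sister. Mre11a, Rad50 and Nbn form the complex that binds and trims broken ends, Brca1 and Brca2 lead the recombinase to them, and Rad52 anneals strands. Of the 13 recombination genes 12 had a lower mean in KO light than in WT light as labelled, all but Smc6, with differences of -0.20 to 0.00 and a median of -0.08 against -0.01 over all genes. With the exchanged arrays 10 were lower and the median was -0.12 against -0.02 over all genes. Of all 19937 genes 11270 were lower as labelled and 11751 with the exchanged arrays. None was called as labelled between KO light and WT light, where 0.176% of all genes were called. An unadjusted p under 0.05 in limma was reached there by 4 of the 13, namely Blm, Wrn, Recql5 and Smc5, and by 12.9% of all genes.

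Blm, a RecQ helicase that dissolves joined strands, carried the route's only calls. Blm had log2 intensities of 7.93, 7.84 and 7.76 in WT dark 1 to 3, 7.74, 7.82 and 7.75 in KO dark, 7.76, 7.75 and 7.92 in WT light and 7.49, 7.61 and 7.74 in KO light 1 to 3, with 7.54 in WT dark 4. KO light 1, KO light 2 and WT dark 4 were the lowest of all arrays, and KO light 3 lay within the range of KO dark. Against WT light Blm differed by -0.20 (SE 0.07, 95% interval -0.35 to -0.04, adjusted p = 0.288) in KO light as labelled and fell, at -0.26 (SE 0.06, 95% interval -0.39 to -0.13, adjusted p = 0.0125) with the exchanged arrays, a ratio of 0.834. Against KO dark Blm differed by -0.16 (SE 0.07, 95% interval -0.31 to 0.00, adjusted p = 0.364) as labelled and fell, at -0.22 (SE 0.06, 95% interval -0.35 to -0.09, adjusted p = 0.0184) with the exchanged arrays. Its call against WT light was lost there without KO light 1 or WT light 3, at adjusted p of up to 0.0502, and its call against KO dark without KO dark 2, KO light 1 or WT dark 4, at up to 0.0696.

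The other helicases of the RecQ family gave smaller values. Between KO light and WT light Wrn differed by -0.14 (SE 0.06, adjusted p = 0.38), Recql5 by -0.11 (SE 0.04, adjusted p = 0.338) and Recql by -0.06 (SE 0.05, adjusted p = 0.675). In the complex of Smc5, Smc6 and the SUMO ligase Nsmce2, which holds stalled forks and sisters together, Smc5 differed by -0.13 (SE 0.05, adjusted p = 0.326), Smc6 by 0.00 (SE 0.05, adjusted p = 0.992) and Nsmce2 by -0.10 (SE 0.06, adjusted p = 0.561). These 6 differences were, with the exchanged arrays, -0.14, -0.13, -0.05, -0.14, 0.02 and -0.15, in the order just given. Nsmce2 reached an adjusted p of 0.0378 against KO dark with the exchanged arrays, at -0.18 and a ratio of 0.881, just inside the ratio limit. Brca1 differed from KO dark by -0.12 (SE 0.07, adjusted p = 0.495) as labelled and by -0.19 (SE 0.07, adjusted p = 0.0547) with the exchanged arrays, and from WT dark by -0.14 (SE 0.07, adjusted p = 0.326) in WT light. Brca2, whose SD of 0.22 was the highest among the repair genes in KO light, differed from WT light by -0.08 (SE 0.12, adjusted p = 0.848) as labelled and by -0.15 (SE 0.10, adjusted p = 0.346) with the exchanged arrays. The end-binding genes Mre11a, Rad50 and Nbn differed between KO light and WT light by -0.10 (SE 0.07, adjusted p = 0.591), -0.06 (SE 0.08, adjusted p = 0.793) and -0.03 (SE 0.05, adjusted p = 0.806) as labelled. Mre11a, with the exchanged arrays, was at -0.11 and Nbn at -0.04, while Rad50 turned to 0.08 (SE 0.05, adjusted p = 0.392). Rad52 lay within 0.02 of equality in all 4 pairwise comparisons as labelled.

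Checkpoint kinases signal damage to the cell cycle. Atm answers double-strand breaks and Atr single-stranded DNA, and Chek1 and Chek2 pass their signals on. Atm had log2 intensities of 8.06, 7.94 and 8.04 in WT dark 1 to 3, 8.20, 8.09 and 8.18 in KO dark, 8.33, 8.24 and 8.35 in WT light and 8.18, 8.22 and 8.04 in KO light 1 to 3, with 8.33 in WT dark 4. The 3 WT dark arrays and KO light 3 were the 4 lowest, and WT light lay above all of them. Atm differed between WT light and WT dark by 0.30 (SE 0.06, 95% interval 0.17 to 0.43, adjusted p = 0.0568) as labelled, short of the threshold, and rose at an adjusted p of 0.00796 and a ratio of 1.23 with the exchanged arrays, where the difference without WT dark 2 was 0.26 (adjusted p = 0.036) and just missed the ratio limit. KO dark differed from WT dark by 0.15 (SE 0.06, 95% interval 0.02 to 0.28, adjusted p = 0.609), and the 2 groups did not overlap. The interaction was -0.31 (SE 0.09, 95% interval -0.49 to -0.12, adjusted p = 0.395) as labelled and -0.21 (SE 0.08, 95% interval -0.38 to -0.04, adjusted p = 0.184) with the exchanged arrays. Npat, the neighbour of Atm on chromosome 9, differed by 0.28 (adjusted p = 0.155) in KO dark and by 0.21 (adjusted p = 0.145) in WT light from WT dark. Atr differed between WT light and WT dark by 0.11 (SE 0.06, adjusted p = 0.382), Chek1 by -0.04 (SE 0.05, adjusted p = 0.733) and Chek2 by -0.11 (SE 0.08, adjusted p = 0.538), and Chek2 had a mean log2 intensity under 6.

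The promoter window of Atm (chr9:53536622-53536921, minus strand) is shown for its call with the exchanged arrays and for the NRF-1 core, in capitals, whose first base lies 51 bases before the start. That core also stands in windows of Ercc6, Fanci, Lig1, Lig4, Pold2, Rpa2, Xpa and Xrcc5, none of which was called as labelled or with the exchanged arrays.
Atm: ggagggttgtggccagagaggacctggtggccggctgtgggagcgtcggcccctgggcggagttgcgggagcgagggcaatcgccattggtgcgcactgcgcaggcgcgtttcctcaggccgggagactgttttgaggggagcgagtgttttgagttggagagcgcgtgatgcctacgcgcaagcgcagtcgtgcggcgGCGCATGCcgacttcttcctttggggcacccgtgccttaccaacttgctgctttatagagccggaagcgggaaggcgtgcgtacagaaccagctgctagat

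Nucleotide excision repair cuts out bulky lesions. Xpc and the pair of Ddb1 and Ddb2 find the damage, Ercc6 acts where transcription has stalled, Ercc2 and Ercc3 unwind the helix, Xpa checks the site, and Ercc5 and the pair of Ercc1 and Ercc4 make the cuts. None of the 10 genes was called as labelled or with the exchanged arrays. Of the 10, 7 had a higher mean in WT light than in WT dark and 7 a higher mean in KO light than in KO dark, with medians of 0.06 and 0.05 against 0.02 and 0.00 over all genes. Of all genes 56.1% and 48.4% were higher in these comparisons as labelled.

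Ddb1, a subunit of ubiquitin ligases that also joins Ddb2 at damaged bases, came nearest to a call. Ddb1 had log2 intensities of 10.92, 10.87 and 10.98 in WT dark 1 to 3, 10.95, 11.01 and 10.94 in KO dark, 11.20, 11.19 and 11.12 in WT light and 11.04, 11.11 and 10.90 in KO light 1 to 3, with 11.08 in WT dark 4. The 3 WT light arrays were the highest of all 13, and KO light 3 lay among the WT dark arrays. WT light differed from WT dark by 0.25 (SE 0.06, 95% interval 0.12 to 0.37, adjusted p = 0.0745) as labelled. With the exchanged arrays the adjusted p was 0.00737 and the ratio 1.19, just under the limit of 1.2. KO light differed from WT light by -0.15 (SE 0.06, 95% interval -0.28 to -0.03, adjusted p = 0.305) as labelled and by -0.09 (SE 0.04, 95% interval -0.19 to 0.01, adjusted p = 0.213) with the exchanged arrays. Xpc differed between WT light and WT dark by 0.20 (SE 0.06, 95% interval 0.08 to 0.32, adjusted p = 0.111) as labelled, and with the exchanged arrays the adjusted p was 0.0457 at a ratio of 1.15, under the limit. Xpc had log2 intensities of 7.30, 7.49 and 7.43 in WT dark 1 to 3, 7.40, 7.49 and 7.47 in KO dark, 7.55, 7.61 and 7.66 in WT light and 7.49, 7.50 and 7.49 in KO light 1 to 3, with 7.57 in WT dark 4. WT light lay above WT dark in all 3 arrays, while WT dark 4 lay within the WT light range.

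The unwinding and cutting factors differed by at most 0.14 in the 4 pairwise comparisons as labelled. Ercc2 and Ercc6 were at 0.13 (SE 0.05, adjusted p = 0.224) and 0.14 (SE 0.06, adjusted p = 0.271) between WT light and WT dark. Against KO dark with the exchanged arrays they reached 0.16 (SE 0.05, adjusted p = 0.0299) and 0.16 (SE 0.05, adjusted p = 0.0376), at ratios of 1.12 and 1.12 that stayed inside the limit. Ercc4 was 0.11 (SE 0.07, adjusted p = 0.509) and its partner Ercc1 0.00 (SE 0.05, adjusted p = 0.989) between KO light and WT light. Ercc3, Ercc5, Xpa and Ddb2 were at -0.00 (SE 0.05, adjusted p = 0.987), -0.02 (SE 0.05, adjusted p = 0.902), -0.01 (SE 0.06, adjusted p = 0.952) and -0.09 (SE 0.05, adjusted p = 0.533) there as labelled, and at 0.03, -0.04, 0.01 and -0.10 with the exchanged arrays, where Ercc4 was 0.13 and Ercc1 0.02.

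Base excision repair held the largest differences of KO light from KO dark. Ogg1 and Mutyh deal with oxidized guanine, Apex1 cuts the strand where a base is lost, Polb fills the gap, and Xrcc1 with Lig3, or Lig1, closes it. Parp1 senses the strand break and marks proteins around it with ADP-ribose. Parp1 had log2 intensities of 8.64, 8.58 and 8.63 in WT dark 1 to 3, 8.54, 8.59 and 8.48 in KO dark, 8.60, 8.64 and 8.71 in WT light and 8.89, 8.73 and 8.62 in KO light 1 to 3, with 9.01 in WT dark 4. WT dark 4, KO light 1 and KO light 2 were the 3 highest arrays, and KO light 3 lay within the WT dark range. KO light differed from KO dark by 0.21 (SE 0.07, 95% interval 0.07 to 0.35, adjusted p = 0.204) as labelled, and Parp1 rose by 0.34 (SE 0.06, 95% interval 0.20 to 0.48, adjusted p = 0.00201) with the exchanged arrays, a ratio of 1.27. With KO light 1 and 2 alone the rise was 0.28 (SE 0.06, adjusted p = 0.00995), and the call held in all 12 fits that left out 1 of the exchanged arrays. Against WT light the difference was 0.10 (SE 0.07, 95% interval -0.04 to 0.24, adjusted p = 0.569) as labelled and 0.23 (SE 0.06, 95% interval 0.09 to 0.36, adjusted p = 0.0326) with the exchanged arrays, at a ratio of 1.17. Between WT light and WT dark Parp1 differed by 0.03 (SE 0.07, 95% interval -0.11 to 0.17, adjusted p = 0.837), and the interaction was 0.18 (SE 0.09, 95% interval -0.02 to 0.38, adjusted p = 0.761) as labelled and 0.31 (SE 0.09, 95% interval 0.12 to 0.50, adjusted p = 0.0873) with the exchanged arrays.

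Apex1 differed in KO light in the same direction. Apex1 had log2 intensities of 8.004, 8.01 and 7.87 in WT dark 1 to 3, 7.92, 7.98 and 7.79 in KO dark, 8.15, 8.12 and 8.17 in WT light and 8.32, 8.03 and 7.98 in KO light 1 to 3, with 8.45 in WT dark 4. WT dark 4 and KO light 1 were the highest, and KO light 2 and 3 lay below every WT light array. The difference between KO light and KO dark was 0.21 (SE 0.08, 95% interval 0.03 to 0.39, adjusted p = 0.293) as labelled, and Apex1 rose by 0.36 (SE 0.09, 95% interval 0.17 to 0.56, adjusted p = 0.0108) with the exchanged arrays, a ratio of 1.29. That call was lost without KO dark 3 or WT dark 4, at adjusted p of up to 0.0526. WT light differed from WT dark by 0.18 (SE 0.08, 95% interval 0.00 to 0.36, adjusted p = 0.285), and the groups did not overlap. The interaction was 0.03 (SE 0.12, 95% interval -0.23 to 0.28, adjusted p = 0.983) as labelled and 0.18 (SE 0.13, 95% interval -0.09 to 0.45, adjusted p = 0.528) with the exchanged arrays. Against WT light Apex1 differed by -0.04 (SE 0.08, 95% interval -0.22 to 0.14, adjusted p = 0.898) in KO light as labelled and by 0.12 (SE 0.09, 95% interval -0.07 to 0.31, adjusted p = 0.428) with the exchanged arrays, on the other side of 0. The glycosylases Ogg1 and Mutyh differed between KO light and KO dark by 0.05 (SE 0.06, adjusted p = 0.772) and -0.04 (SE 0.06, adjusted p = 0.821), Polb by -0.07 (SE 0.04, adjusted p = 0.543), the ligases Lig1 and Lig3 by -0.00 (SE 0.06, adjusted p = 0.992) and 0.03 (SE 0.05, adjusted p = 0.87), and Xrcc1 by 0.02 (SE 0.06, adjusted p = 0.924) as labelled. Under the exchange these 6 lay between -0.11 (Mutyh) and 0.09 (Lig3), Xrcc1 turning to -0.07. The summed reactive glia genes, at 4920 to 6088 in KO light with the exchanged arrays against 1050 to 1152 in KO dark, were higher in the same 3 arrays as Parp1, and their part in its level was not tested.

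The promoter windows of Parp1 (chr1:180568641-180568940, plus strand) and Apex1 (chr14:50924699-50924998, plus strand) are shown since these were the repair genes that rose in KO light with the exchanged arrays. Capitals mark the E-box, which stands 1 time in the window of Parp1, 49 bases before the start, and 3 times in that of Apex1, from 24 bases before the start to base 22 after it. The E-box, added after the windows had been seen, also stands in windows of Ercc6, Lig1, Lig3, Rpa1 and Xrcc5. None of these genes was called as labelled or with the exchanged arrays.
Parp1: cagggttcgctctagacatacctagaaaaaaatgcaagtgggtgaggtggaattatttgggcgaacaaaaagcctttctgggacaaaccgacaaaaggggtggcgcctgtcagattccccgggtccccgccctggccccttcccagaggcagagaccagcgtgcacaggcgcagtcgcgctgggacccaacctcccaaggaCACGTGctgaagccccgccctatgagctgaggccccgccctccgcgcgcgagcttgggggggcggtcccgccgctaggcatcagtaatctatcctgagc
Apex1: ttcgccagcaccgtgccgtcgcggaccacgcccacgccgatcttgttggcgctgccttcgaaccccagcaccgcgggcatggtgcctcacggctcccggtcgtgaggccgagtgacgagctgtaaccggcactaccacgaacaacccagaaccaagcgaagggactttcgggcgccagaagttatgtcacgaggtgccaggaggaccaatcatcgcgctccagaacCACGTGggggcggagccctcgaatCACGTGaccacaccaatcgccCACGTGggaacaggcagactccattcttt

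Mismatch repair removes bases that do not pair. Msh3 and Msh6 recognise them, Msh3 the larger loops, and Pms2 nicks the strand to be replaced. Msh3 had log2 intensities of 8.60, 8.49 and 8.48 in WT dark 1 to 3, 8.66, 8.56 and 8.54 in KO dark, 8.45, 8.45 and 8.48 in WT light and 8.28, 8.40 and 8.52 in KO light 1 to 3, with 8.37 in WT dark 4. KO dark lay above KO light as labelled in every array, and KO light 3 was the highest of the KO light arrays. Against KO dark Msh3 differed by -0.18 (SE 0.06, 95% interval -0.32 to -0.04, adjusted p = 0.241) in KO light as labelled and fell, at -0.23 (SE 0.05, 95% interval -0.34 to -0.12, adjusted p = 0.00563) with the exchanged arrays, a ratio of 0.85. Without KO dark 1 or KO light 1 the difference there was -0.20 and missed the ratio limit, at adjusted p of up to 0.0286, and the call held with KO light 1 and 2 alone at -0.24 (SE 0.06, adjusted p = 0.0175). Msh6 and Pms2 were at 0.01 (SE 0.05, adjusted p = 0.968) and 0.03 (SE 0.07, adjusted p = 0.912) in that comparison as labelled and at 0.02 and 0.00 with the exchanged arrays, and Pms2 was at 0.16 (SE 0.07, adjusted p = 0.29) between WT light and WT dark. All 3 genes had a lower mean in KO light than in WT light, with a median of -0.06 as labelled and -0.11 with the exchanged arrays. Of all 19937 genes 11270 were lower as labelled and 11751 with the exchanged arrays, with medians of -0.01 and -0.02.

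The promoter window of Msh3 (chr13:92354954-92355253, minus strand) is shown for its fall in KO light against KO dark with the exchanged arrays. It is also shown for the E2F letters TTTGGCGC, in capitals, which begin 202 bases before the start.
Msh3: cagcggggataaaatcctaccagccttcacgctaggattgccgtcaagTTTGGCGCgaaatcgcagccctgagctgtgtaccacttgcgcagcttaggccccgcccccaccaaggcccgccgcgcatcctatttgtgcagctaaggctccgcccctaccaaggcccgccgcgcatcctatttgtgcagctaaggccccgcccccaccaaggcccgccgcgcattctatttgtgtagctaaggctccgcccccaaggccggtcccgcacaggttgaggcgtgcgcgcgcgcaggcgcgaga

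End joining relies on Xrcc5 and Xrcc6, the Ku pair that binds broken ends, on the kinase Prkdc that they recruit, and on Xrcc4 and Lig4, which seal the break. None of the 5 was called as labelled or with the exchanged arrays. The means of all 5 were below WT dark in KO dark mice, as were those of 9643 of all 19937 genes. The differences were -0.09 to -0.05 with a median of -0.08, and the smallest adjusted p was 0.836 for Xrcc5. Lig4 differed most with light, by 0.18 (SE 0.07, adjusted p = 0.246) between WT light and WT dark, and against KO dark it was at 0.08 (SE 0.07, adjusted p = 0.671) as labelled and 0.19 (SE 0.06, adjusted p = 0.03) with the exchanged arrays, a ratio of 1.14 inside the limit. Xrcc6 was at -0.13 (SE 0.06, adjusted p = 0.279) between WT light and WT dark, Prkdc at 0.09 (SE 0.06, adjusted p = 0.432), Xrcc4 at -0.05 (SE 0.06, adjusted p = 0.724) and Xrcc5 at -0.01 (SE 0.05, adjusted p = 0.948).

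Gap-filling factors serve several routes. Rpa1, Rpa2 and Rpa3 coat single-stranded DNA, and Pold1, Pold2 and Pold3 are subunits of DNA polymerase delta. All 6 had a higher mean in WT light than in WT dark, as had 56.1% of all genes, with a median of 0.10 against 0.02 over all genes. None was called as labelled or with the exchanged arrays. Rpa3 had log2 intensities of 7.19, 7.21 and 7.03 in WT dark 1 to 3, 7.17, 7.15 and 7.17 in KO dark, 7.30, 7.21 and 7.34 in WT light and 7.05, 7.11 and 7.04 in KO light 1 to 3, with 7.11 in WT dark 4. The 3 WT light arrays of Rpa3 lay above all KO light arrays, and WT dark 3 was the lowest. Between KO light and WT light Rpa3 differed by -0.22 (SE 0.06, 95% interval -0.34 to -0.09, adjusted p = 0.152) as labelled and by -0.19 (SE 0.05, 95% interval -0.31 to -0.08, adjusted p = 0.0347) with the exchanged arrays, at a ratio of 0.875 just inside the limit of 0.87. Rpa1 had log2 intensities of 9.33, 9.27 and 9.27 in WT dark 1 to 3, 9.28, 9.38 and 9.29 in KO dark, 9.50, 9.44 and 9.39 in WT light and 9.32, 9.35 and 9.34 in KO light 1 to 3, with 9.33 in WT dark 4. WT light was above WT dark in every array, and WT dark 4 lay within the ranges of both KO dark and KO light. Rpa1 differed between WT light and WT dark by 0.16 (SE 0.05, 95% interval 0.05 to 0.26, adjusted p = 0.137) and between KO light and WT light by -0.11 (SE 0.05, 95% interval -0.22 to -0.01, adjusted p = 0.353) as labelled and by -0.11 (SE 0.04, 95% interval -0.21 to -0.02, adjusted p = 0.123) with the exchanged arrays.

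The polymerase subunits differed in direction against KO dark. Pold2 was at 0.11 (SE 0.05, adjusted p = 0.389) against KO dark as labelled and 0.25 (SE 0.07, adjusted p = 0.0226) with the exchanged arrays, a ratio of 1.19 just under the limit, while Pold1 was at -0.08 (SE 0.09, adjusted p = 0.74) and -0.15 (SE 0.07, adjusted p = 0.178). Pold3 was at 0.08 (SE 0.07, adjusted p = 0.656) and Rpa2 at 0.01 (SE 0.06, adjusted p = 0.971) as labelled, and at 0.11 and 0.00 with the exchanged arrays. The replication licensing genes, 6 in all, summed to 914.7 to 1003 in KO light with the exchanged arrays and to 821.2 to 941.6 as labelled. In KO dark they summed to 790.2 to 831.3. The 6 measured genes of dividing cells summed to 719.7 to 807.7 in KO light with the exchanged arrays and to 723.6 to 883.7 as labelled. Their KO dark sums were 791.4 to 875.3, and with the exchanged arrays 4 of the 6 had a lower mean in KO light than in KO dark. The part of either list was not tested.

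**Figure D4:**
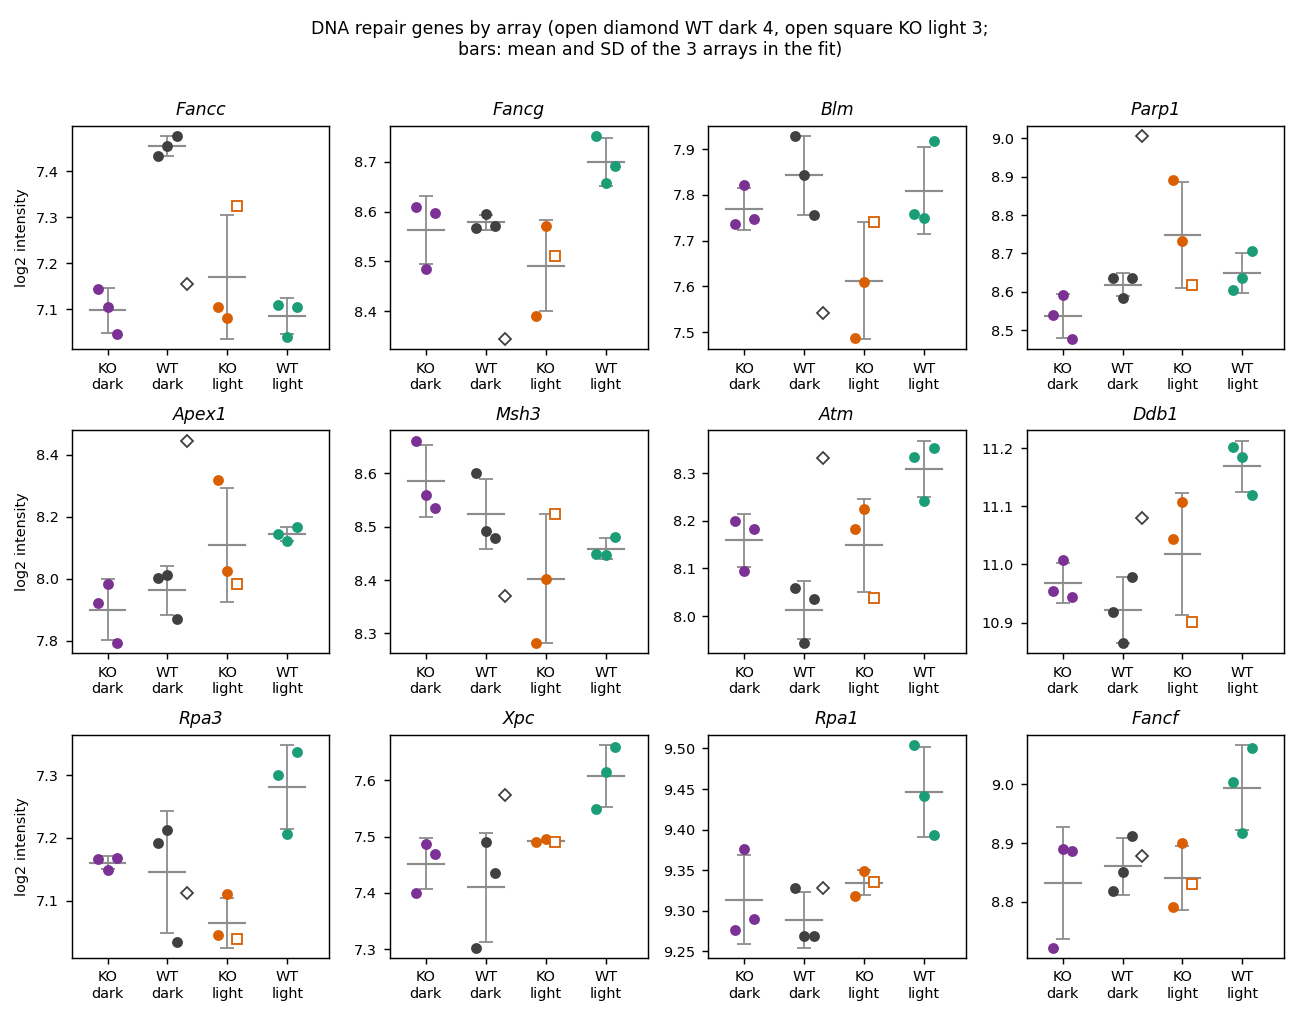
Log2 intensity of 12 DNA repair genes in each of the 13 arrays by group, with grey lines for the mean and bars for the SD of the 3 arrays in the fit as labelled, WT dark 4 as an open diamond and KO light 3 as an open square. Each panel has its own scale, which does not start at 0. For Fancc, Blm, Parp1, Apex1, Msh3, Atm and Ddb1 the open square lies nearer to WT dark and the open diamond nearer to KO light 1 and 2. For Fancg, Fancf, Xpc, Rpa1 and Rpa3 the open square lies nearer to KO light 1 and 2 than to WT dark.

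Other repair genes, beyond the 57, were read the same way. Of 103 listed 91 were measured, and 0 of them were called in any of the 5 comparisons as labelled, with 8, 11, 8, 17 and 7 at an unadjusted p under 0.05 for KO dark against WT dark, KO light against WT light, KO light against KO dark, WT light against WT dark and the interaction. Those are 8.79%, 12.1%, 8.79%, 18.7% and 7.69%, where all genes gave 7.1%, 12.9%, 13.9%, 17.1% and 6.86%. With the exchanged arrays 5 of 91 (5.49%) were called between KO light and WT light, below the 8.23% of all genes. Smug1, which removes uracil, was at -0.38 (SE 0.06, adjusted p = 0.00152), Alkbh3, which reverses base methylation, at -0.31 (SE 0.06, adjusted p = 0.0032), the recombination gene Rad51b at -0.23 (SE 0.05, adjusted p = 0.00767) and the clamp loader Rfc1 at -0.21 (SE 0.05, adjusted p = 0.016), all of which fell, while Mdc1, which binds chromatin marked at breaks, rose by 0.30 (SE 0.05, adjusted p = 0.00358). Against KO dark 4 of 91 (4.4%) were called in KO light, below the 13.3% of all genes. The clamp loader subunits Rfc2 and Rfc5 rose by 0.38 (SE 0.06, adjusted p = 0.00086) and 0.27 (SE 0.08, adjusted p = 0.0298), and Rad54b and Smug1 fell, at -0.42 (SE 0.11, adjusted p = 0.0162) and -0.21 (SE 0.06, adjusted p = 0.0229). Between WT light and WT dark 2 of 91 (2.2%) were called, below the 4.41% of all genes, and both fell, the exonuclease Trex2 at -0.37 (SE 0.06, adjusted p = 0.00375) and Mdc1 at -0.24 (SE 0.05, adjusted p = 0.0182). None was called between KO dark and WT dark or in the interaction. In median the 91 genes differed by -0.05 between KO light and WT light and by 0.05 between WT light and WT dark as labelled.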

How the data were processed

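RNA of both retinae of a mouse was measured on 1 array per mouse, 13 arrays in all. The authors deposited linear intensities of probe sets, already brought to a common level. The methods name Partek and Bioconductor, and the submitters' processing notes name Partek. For versions, summarization, normalization and genome build the sources used here give nothing. The labels name Trizol for the RNA and female dark mice, whereas the methods name another kit and male mice. The median intensity of an array was 141.1 to 145.6, and the number of arrays limits the precision.

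Values were taken to log2, and the 21640 of 34760 probe sets with 1 symbol were averaged to 19937 genes. The 57 repair genes had 1 probe set each except Nbn and Rpa3. limma 3.58.1 (R 4.3.3) fitted 1 model of the 4 groups to 12 arrays (8 residual degrees of freedom before moderation), with Benjamini-Hochberg adjustment over the 19937 genes. The adjusted p and SE given as labelled are from this fit, and no low values were filtered. Those given with the exchanged arrays, with arrays left out or with sex as a covariate are from separate fits of those arrays or with that term. Arrays are labelled as biological replicates, 1 mouse each. The model was tested on simulated data. Array values are given for 12 genes, those called as labelled or with the exchanged arrays and then those with the smallest unadjusted p. The repair genes and all lists were chosen with earlier results of these data known. Alternatives covered the arrays, sex, replicate number, moderation, scaling, probe sets, dim genes and the ratio limit. Promoter windows are those of RefSeq.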

Additional observations from a re-analysis of the deposited data

Results flagged for a closer look

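Among 21 sets of 4 WT dark values, 12 single genes and 9 means over repair routes or all members, 1 array stood far from the others in 4, where chance alone would give about 1 in 20. That rate is no measure for these sets. Of the 12 genes 7, Fancc, Fancg and Parp1 among them, were chosen by calls as labelled or with WT dark 4 placed in KO light. The rest were chosen by the smallest unadjusted p in limma as labelled, which for Ddb1, Xpc and Rpa1 rests on WT dark 1 to 3. The 9 means are not independent, since the mean over all members holds the genes of every route. The array labelled WT dark 4 was apart from the other WT dark arrays for Fancc, at a log2 intensity of 7.155 against 7.433 to 7.476, for Fancg, at 8.345 against 8.568 to 8.595, and for Parp1, at 9.006 against 8.585 to 8.637. The mean of the 3 mismatch repair genes was 7.878 in WT dark 1 and 7.762 to 7.774 in the other 3. With the exchanged arrays the light response of Fancc differed between the genotypes, at 0.3842 on the log2 scale for KO minus WT mice in the limma interaction, and as labelled that term missed the threshold. The cause of these values was not tested.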

How the results depend on the processing

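Counts of called repair genes changed with the arrays used. As labelled they were 0, 0, 0, 1 and 0 for KO dark against WT dark, KO light against WT light, KO light against KO dark, WT light against WT dark and the interaction, and with the exchanged arrays 1, 2, 4, 2 and 1. In the same order 0.0752%, 0.176%, 0.1%, 0.431% and 0.0602% of all genes were called as labelled. With the exchanged arrays the shares of all genes were 0.878%, 8.23%, 13.3%, 4.41% and 2.78%. The counts of the refits below stand without such shares and are not read as a result about the repair genes. With only the 2 groups compared, or after quantile normalization, the count was 1 for KO dark against WT dark and 2 for WT light against WT dark. For WT light against WT dark it was 0 with all 13 arrays, 0 with the replicate block, 0 without moderation and 2 without dim genes. Leaving out each array in turn gave 0 to 1, 0 to 1, 0 to 2, 0 to 2 and 0 to 1 as labelled, and 1, 1 to 4, 2 to 7 (5 without KO dark 3), 1 to 3 and 1 to 3 with the exchanged arrays, a choice made after seeing the data. With all 13 arrays and sex as a covariate, which rests on WT dark 4 alone, the difference between KO light and KO dark turned to 0.14 for Blm, -0.18 for Parp1 and -0.27 for Apex1, and that of Atm between WT light and WT dark to -0.023. In the same fit Fancc fell short of its call between WT light and WT dark, at -0.069 (adjusted p = 0.765), and the 1 gene called there was Pold2, lower in WT light. Msh3 was at -0.029 between KO light and KO dark, and Xpc at 0.033 and Ddb1 at 0.089 between WT light and WT dark. The cause was not tested. The replicate numbers did not pair the arrays, since same-numbered arrays correlated at -0.192 to 0.22 over 18 pairs, 2 of them over 0.1, and the block left the other 4 counts at 0. Under every scaling the median difference of all genes lay between -0.02 and 0.03. Of all genes called between KO light and WT light 68.6% were higher, and 58.2% after quantile normalization. The 15 differences of single genes kept their direction and side of the threshold in 383 refits, passed it in 123, lost it in 13 and turned in 4. Among the 15 only Fancc between WT light and WT dark was called as labelled, so all 13 losses were of that call. It held in 10 of 23 refits, and in all 12 fits that left out 1 of the exchanged arrays. The other differences counted as kept where they stayed uncalled. Most of their passes came from fits that left out 1 of the exchanged arrays.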
